A study of Mus musculus with 2 samples.

Results

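Matrix metalloproteinases cut the proteins of the extracellular matrix, and the tissue inhibitors of metalloproteinases (TIMPs) bind and block them. The account covers 10 mouse genes of the family, namely the 8 metalloproteinase genes Mmp2, Mmp3, Mmp8, Mmp9, Mmp12, Mmp13, Mmp14 and Mmp19 and the 2 inhibitor genes Timp1 and Timp2, chosen by gene symbol out of 31053 genes in the deposited count tables. The choice was made with earlier results of these data known. All 10 genes were found in both tables. A further 16 Mmp and Timp genes were in the tables and serve as comparison.

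The cells came from fibrosarcomas, tumours of connective tissue, grown under the skin of genetically matched wild-type C57BL/6 mice. The study set tumours given the animal's own erythrocytes in buffered saline against tumours given saline alone, and there was 1 single-cell library per title. The library titled Blood carries the treatment label PBS injected, and the library titled Control carries the treatment label Erythrocyte injected. Title and treatment label contradict each other, so the libraries are called by their titles, titled Blood and titled Control, and neither direction of a difference can be tied to erythrocytes or to saline. No number of animals, age, sex or cell sort is given in the sources used here. The tumours were digested with collagenase B and DNase I and the erythrocytes were lysed. With 1 library per title there is no replicate check. The intervals below are exact 95% intervals that cover counting error only, and no p-value is given.

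Both libraries held about the same number of unique molecular identifiers (UMIs, each counting 1 captured transcript), 115066023 in the library titled Blood and 115272096 in the library titled Control. Filters and doublet removal left 11341 and 8823 cells, whose median depth was 6577 and 9245 UMIs. Of the barcodes left 339 occurred in both libraries. Cells were grouped without the Mmp and Timp genes and named from marker genes, and 9 classes had at least 50 cells in both libraries. Macrophage-like cells were the largest class (5514 and 5077 cells), and neutrophil-like cells differed most in number (1774 and 129 cells). Levels are summed counts of a class scaled to CPM, the count per 1e6 UMIs of that class.

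The family is usually described by substrate. Mmp8 and Mmp13 encode collagenases, Mmp2 and Mmp9 gelatinases, Mmp3 a stromelysin and Mmp12 the macrophage elastase. Mmp14 encodes a protease anchored in the cell membrane that activates the Mmp2 proenzyme, a step in which the Timp2 protein takes part. Neutrophils carry Mmp8 and Mmp9 protein in granules filled while the cells mature, and osteoclasts, the bone-resorbing cells of the myeloid lineage, are known for high Mmp9. Transcript counts say nothing of the amount of active enzyme, since most members are made as proenzymes and cut outside the cell.

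Of the 10 genes, 4 lie in 1 array of Mmp genes on chromosome 9 of mm10 (GRCm38), which holds 10 Mmp genes between positions 7272514 and 7699585, or 427.072 kb. In map order the 4 are Mmp13 (chr9:7272514-7283331), Mmp12 (chr9:7344381-7369499), Mmp3 (chr9:7445822-7455975) and Mmp8 (chr9:7558456-7568485), all on the plus strand in the GENCODE annotation. The end of Mmp12 overlaps the antisense gene Mmp1b by 1261 bases, and Mmp1b had 0 and 1 UMI in the libraries titled Blood and Control. The other 6 are elsewhere: Mmp2 at chr8:92827291-92853420, Mmp9 at chr2:164940780-164955850, Mmp14 at chr14:54431612-54445364, Mmp19 at chr10:128790910-128800824, Timp1 at chrX:20870166-20874735 and Timp2 at chr11:118301069-118355740. Timp2 is on the minus strand and the other 5 on the plus strand. Timp1 overlaps Syn1, Mmp19 overlaps Gm47093 and Tmem198b, and Timp2 overlaps Cep295nl, each antisense to it. The strand setting of the authors' counting is not given in the sources used here, so reads over these overlaps could not be assigned by strand with certainty.

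The promoters of the 4 array genes are shown because 3 of these genes were among the 4 that were higher in the macrophage-like class when the library titled Blood was set against the library titled Control. Each line gives the 100 bases just before an annotated RefSeq start (GRCm38.p6, plus strand, 5′ to 3′). Capitals mark TGAGTCA or TGACTCA, the 2 forms of the AP-1 motif, which are each other's reverse complement, so that both strands were searched.
Mmp13 (chr9:7272414-7272513): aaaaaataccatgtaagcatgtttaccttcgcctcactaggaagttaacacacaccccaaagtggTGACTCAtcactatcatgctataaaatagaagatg
Mmp12, upstream start (chr9:7344297-7344396): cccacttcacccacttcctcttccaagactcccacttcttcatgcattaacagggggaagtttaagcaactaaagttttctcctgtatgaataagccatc
Mmp12, downstream start (chr9:7347274-7347373): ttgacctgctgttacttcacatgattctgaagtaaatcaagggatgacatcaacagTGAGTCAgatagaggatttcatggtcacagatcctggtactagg
Mmp3 (chr9:7445722-7445821): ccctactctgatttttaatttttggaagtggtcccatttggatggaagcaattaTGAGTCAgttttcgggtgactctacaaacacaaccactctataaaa
Mmp8 (chr9:7558329-7558428): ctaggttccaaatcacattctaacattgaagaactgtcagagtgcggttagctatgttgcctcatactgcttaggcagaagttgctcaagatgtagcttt
The motif began 35 bases before the start of Mmp13, 44 bases before the downstream start of Mmp12 and 46 bases before the start of Mmp3. RefSeq promoters of 300 bases (250 before and 50 after the start) were matched for 7 of the 10 genes. The motif was in 3 of their 8 promoters, against 5.20% of 32851 mouse promoters of that length. It was not in the 300-base promoters of Mmp8, Mmp14, Timp1 or Timp2, nor in that of the upstream start of Mmp12. A match is a run of letters and not a measured binding site, and the sequences say nothing of the difference between the libraries.

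**Figure D1:**
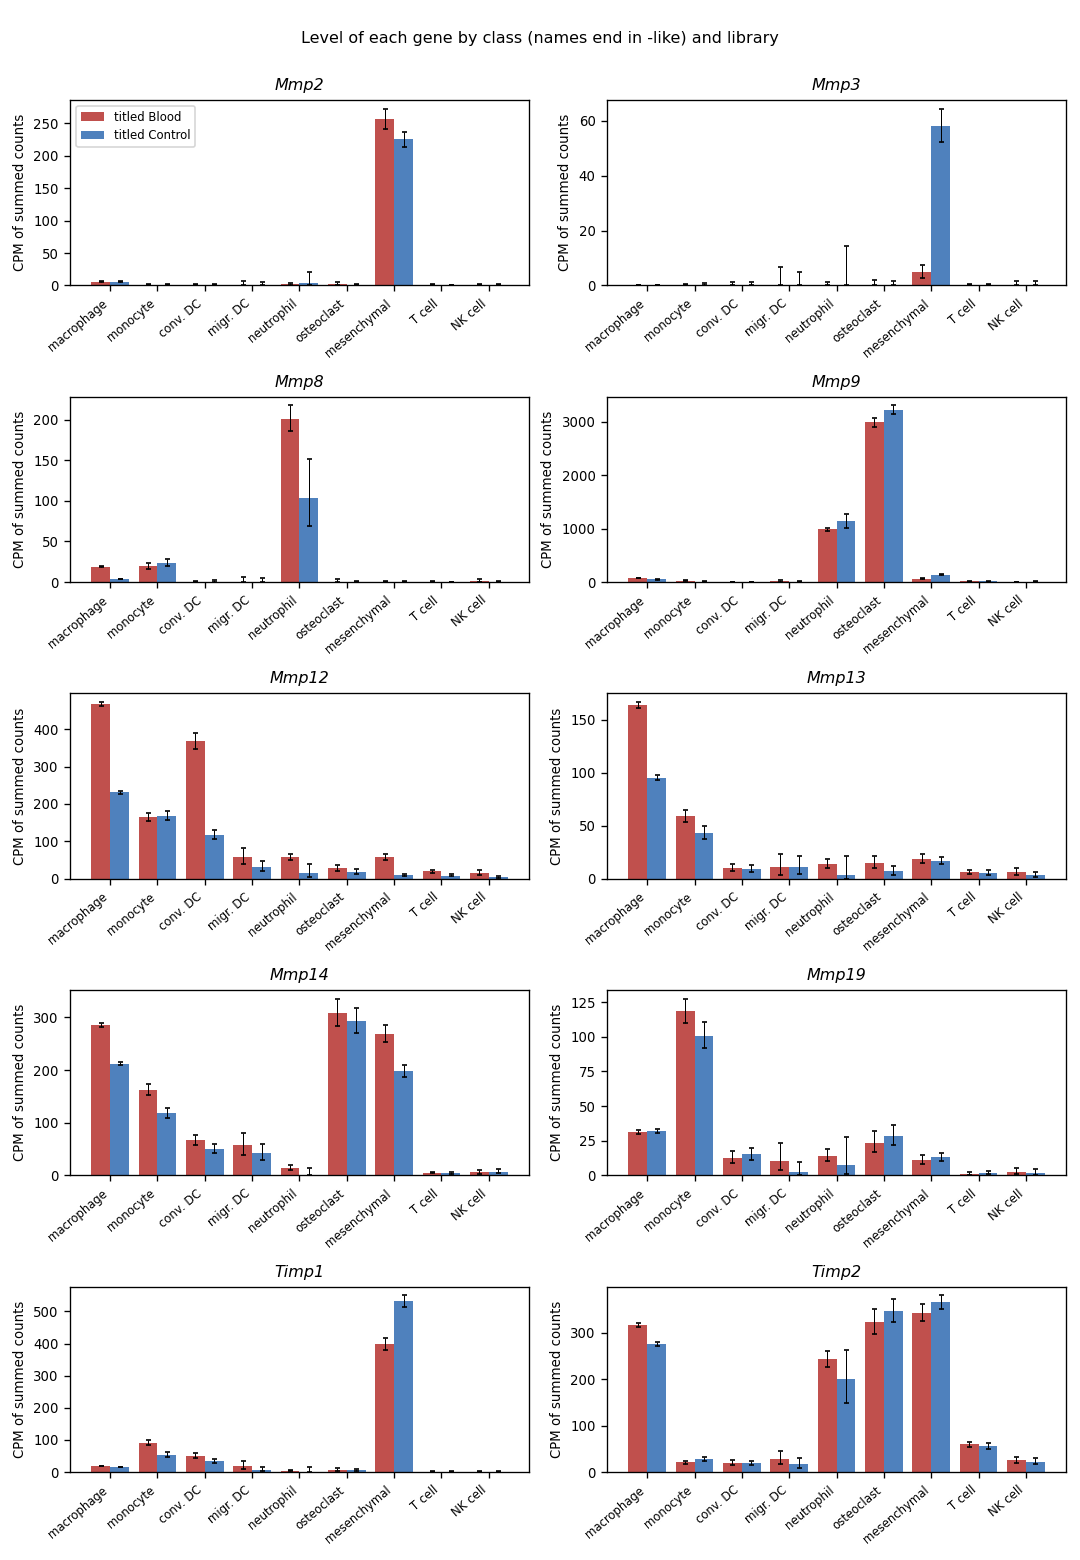
Level of each of the 10 genes (y axis, CPM of the summed counts of a class) in the 9 compared classes (x axis) of the library titled Blood (red, left) and the library titled Control (blue, right). Bars are values of 1 library each and whiskers are exact 95% Poisson intervals. Mmp9 is highest in osteoclast-like cells (2990 and 3230 CPM), Mmp12 and Mmp13 in macrophage-like cells, Mmp8 in neutrophil-like cells and Mmp2, Mmp3 and Timp1 in mesenchymal-like cells.

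The genes differed in which class held their transcripts. Macrophage-like cells held most UMIs of Mmp12 (87.4% of those in the library titled Blood and 86.8% in the library titled Control), Mmp13 (90.3% and 89.4%), Mmp14 (84.2% and 81.6%) and Timp2 (86.7% and 84.3%). Mesenchymal-like cells, the class marked by Col1a1, Col3a1 and Sparc, held most UMIs of Mmp2 (68.0% and 75.5%) and Mmp3 (90.5% and 98.4%) although they were 1.92% and 2.97% of the kept cells. The UMIs of Mmp9 were split between macrophage-like (39.8% and 32.0%), osteoclast-like (34.1% and 56.3%) and neutrophil-like cells (20.7% and 2.41%). These shares follow both the level per cell and the number of cells, and the number of neutrophil-like cells differed between the libraries.

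Among the collagenases, Mmp8 was highest in neutrophil-like cells at 201 CPM (186 to 217) in the library titled Blood and 104 CPM (68.5 to 151) in the library titled Control. Monocyte-like cells came next with 19.8 CPM and 24.0 CPM, and macrophage-like cells followed with 18.96 CPM and 3.87 CPM. In the library titled Blood the intervals of monocyte-like and macrophage-like cells overlapped, and in the library titled Control they did not. Mmp13, the main interstitial collagenase of rodents, had a different order, with macrophage-like cells first at 164 CPM (161 to 167) and 95.3 CPM (93.2 to 97.5). Monocyte-like cells were second at 58.9 and 43.0 CPM, and every other class compared was below 20 CPM in both libraries.

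Mmp12 was highest in macrophage-like cells, at 468 CPM (463 to 473) in the library titled Blood and 231 CPM (228 to 234) in the library titled Control. The next classes changed places between the libraries. Conventional dendritic cell-like cells were at 367 and 117 CPM, and monocyte-like cells at 164 and 168 CPM. T cell-like cells, which should lack the gene, had 19.5 and 8.60 CPM and a UMI in 8.26% and 4.28% of cells, against 47.1% and 32.5% of macrophage-like cells, which had deeper counts per cell. With every cell thinned to 1000 UMIs the shares were 2.61% and 1.07% in T cell-like cells against 19.7% and 10.9% in macrophage-like cells. Thinning left out 27 and 22 shallower T cell-like cells and 128 and 47 macrophage-like cells.

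The gelatinase Mmp9 was highest in osteoclast-like cells, at 2990 CPM (2910 to 3073) in the library titled Blood and 3230 CPM (3154 to 3307) in the library titled Control. This class was small (268 and 175 cells), with few UMIs per cell, and was named from genes such as Ctsk, Acp5 and Atp6v0d2. Its Mmp9 came from a minority of cells, since 53 and 61 cells had a UMI. In the library titled Blood 1 cell held 709 of the 5220 UMIs. Without the top cell of each library the level was 2633 and 3068 CPM. A Mmp9 UMI was found in 941 of 1774 and 80 of 129 neutrophil-like cells. Neutrophil-like cells were second at 987 CPM (953 to 1022) and 1140 CPM (1013 to 1277). Mmp2, the other gelatinase, was at 256 CPM (241 to 272) and 225 CPM (214 to 237) in mesenchymal-like cells and at no more than 5.81 CPM in any other class compared of either library.

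The stromelysin gene Mmp3 was nearly absent outside mesenchymal-like cells. Macrophage-like cells held 2 and 6 UMIs, and the other 7 compared classes held none. In monocyte-like cells the floor of 3 counts is 0.480 and 0.655 CPM, and the exact 95% interval of a count of 0 reaches 0.590 and 0.805 CPM. The count in mesenchymal-like cells, 19 UMIs in the library titled Blood and 374 in the library titled Control, rested on very few cells, since 4 and 9 cells had a UMI and 1 cell of the library titled Control held 277 of its 374.

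Mmp14 was the most widely shared protease. It was at 308 and 293 CPM in osteoclast-like cells, 286 and 212 CPM in macrophage-like cells and 269 and 198 CPM in mesenchymal-like cells. The 3 classes overlapped with their neighbour in that order in the library titled Blood, whereas in the library titled Control all 3 were separate. Mmp19 was highest in monocyte-like cells, at 119 CPM (110 to 127) and 101 CPM (91.9 to 110), well above macrophage-like cells at 31.2 and 32.0 CPM.

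The inhibitors differed from each other. Timp1 was highest in mesenchymal-like cells (398 and 532 CPM), followed by monocyte-like (90.6 and 53.9 CPM) and conventional dendritic cell-like cells (50.6 and 34.7 CPM). Timp2 was about as high in mesenchymal-like (343 and 366 CPM), osteoclast-like (323 and 347 CPM) and macrophage-like cells (317 and 276 CPM), and high also in neutrophil-like cells (243 and 200 CPM). It was at 20.8 and 27.5 CPM in monocyte-like cells, where Timp1 was higher than in macrophage-like cells.

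Between the libraries, the macrophage-like class had more Mmp12, Mmp13, Mmp8 and Mmp9 in the library titled Blood than in the library titled Control. A gene entered the comparison with 10 or more UMIs and a level of 10 CPM or more in one of the libraries, and was called higher or lower when (CPM + 5) differed at least 1.5-fold. Of the 10 genes 8 could be compared, 4 were higher and 0 lower in the library titled Blood, where 0.513% of 7804 genes were called higher and 0.897% lower. The median log2 ratio of the 8 was 0.52, against 0.01 over all genes compared. The 10 genes were chosen with earlier results of these data known, so the contrast with all genes is a description only. Mmp2 and Mmp3 were below the filter. Mmp8 passed it in the library titled Blood alone (18.96 and 3.87 CPM) and so could only be called higher. The same holds below for Mmp9 in monocyte-like and migratory dendritic cell-like cells and for Mmp12 in T cell-like and NK cell-like cells. It holds too for Mmp13 in osteoclast-like and neutrophil-like, Mmp14 in neutrophil-like and Timp1 in migratory dendritic cell-like cells. Mmp3 in mesenchymal-like cells passed in the library titled Control alone.

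Mmp12, the most abundant transcript of the 4 by count, had 35988 UMIs (468 CPM) in the library titled Blood and 18256 UMIs (231 CPM) in the library titled Control, a ratio of 2.02 (1.99 to 2.06). Mmp13 had 12590 and 7535 UMIs, a ratio of 1.72 (1.67 to 1.77). Mmp8 had 1459 and 306 UMIs, a ratio of 4.90 (4.33 to 5.56). Mmp9 had 6095 and 3923 UMIs, a ratio of 1.60 (1.53 to 1.66), close to the threshold. All 4 ratios lie above 1 by more than counting error. The intervals treat UMIs as independent and leave out the spread between cells, and the spread between animals was not measured. Mmp14 stayed below the threshold at 286 and 212 CPM, a ratio of 1.35 (1.32 to 1.37). Timp2 (ratio 1.15), Timp1 (1.19) and Mmp19 (0.975) differed less.

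**Figure D2:**
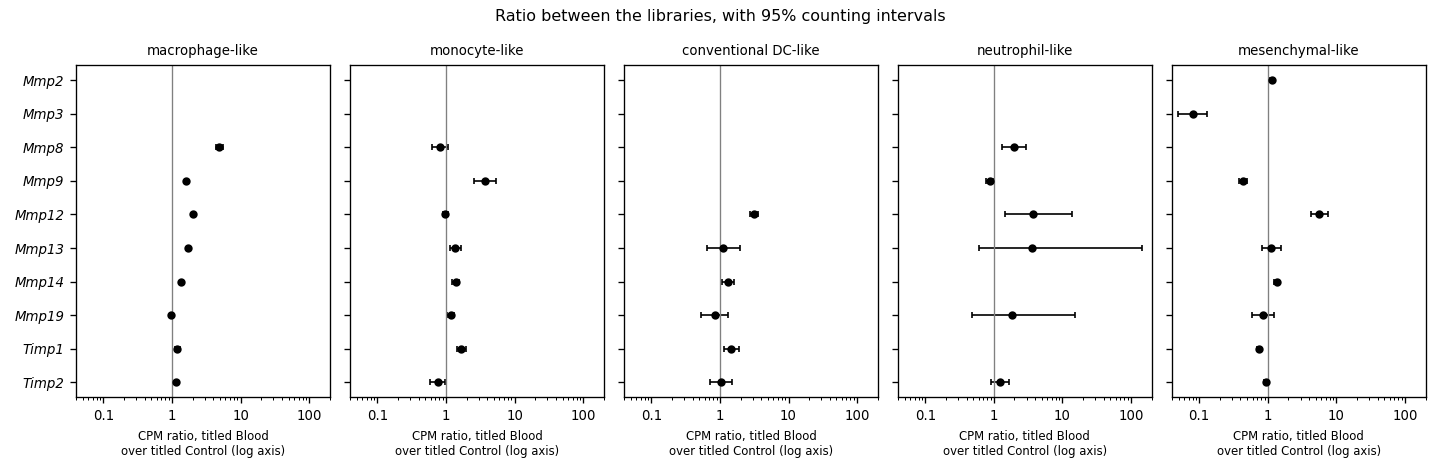
Ratio of CPM in the library titled Blood over the library titled Control (x axis, log scale) for the members compared in each of 5 classes (y axis, genes), with exact 95% intervals for counting error. The vertical line marks a ratio of 1. In macrophage-like cells Mmp8, Mmp9, Mmp12 and Mmp13 lie between 1.60 and 4.90, and in mesenchymal-like cells Mmp3 and Mmp9 lie below 1. Mmp14 in neutrophil-like cells has no UMI in the library titled Control and is not drawn.

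The macrophage-like class consisted of 10 clusters, and the genes were spread unevenly over them. Cluster 7, led by Ppbp, Cd36, Mt2 and the haem-degrading enzyme gene Hmox1, was 12.9% and 5.83% of macrophage-like cells in the libraries titled Blood and Control. It held 42.7% and 50.9% of the macrophage-like Mmp12 UMIs, 77.5% and 53.3% of the Mmp8 UMIs, 27.7% and 23.3% of the Mmp9 UMIs and 23.8% and 17.97% of the Mmp13 UMIs. Its Mmp14 share, 6.19% and 4.10%, was near its share of all macrophage-like UMIs, 7.63% and 4.69%. The clusters were made without these genes, so the levels were not used to define them.

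Within cluster 7 Mmp12 was nearly equal, at 2620 and 2509 CPM (log2 ratio 0.06), and in the other 9 clusters it was higher in the library titled Blood by 0.26 in cluster 6 to 1.60 in cluster 4.0 on the log2 scale. The difference passed 1.5-fold in 8 of the 10 clusters. For this and the later counts of clusters, the share of all genes past 1.5-fold within each cluster was not computed. Clusters 12.2 (85 and 64 cells) and 12.3 (69 and 44 cells) were small, so their ratios carry more counting error. Without cluster 7, an alternative chosen after seeing the data, Mmp12 was at 290 and 119 CPM. With the 10 clusters at equal weight in both libraries the log2 ratio fell to 0.49, below the threshold, against 1.002 with the counts summed.

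Mmp8 differed in cluster 7 itself. It was at 193 CPM in the library titled Blood and 44.0 CPM in the library titled Control, a log2 ratio of 2.01. Outside cluster 7 it was at 4.61 CPM (328 UMIs) and 1.90 CPM (143 UMIs), a log2 ratio of 0.48 on the CPM + 5 scale, which understates ratios at such low levels. There the plain ratio of CPM was 3.32 (2.11 to 5.46) in cluster 2 and 4.66 (2.07 to 12.3) in cluster 3, both below the filter of 10 CPM. It was 1.75 (0.748 to 4.10) in cluster 0 and 1.68 (0.605 to 5.32) in cluster 12.2. In cluster 12.3, on 2 UMIs in each library, it was 0.648 (0.0470 to 8.94). These last intervals include 1. Cluster 5 held 34 UMIs in 671 cells and 46 UMIs in 852 cells. Cluster 13, led by Retnla, Lyve1 and Cd163, was the other cluster that met the filter and passed the threshold, at 19.9 CPM (41 UMIs) and 0 CPM (0 UMIs). In the remaining clusters Mmp8 did not exceed 11.1 CPM in either library. Macrophage-like cells with a Mmp8 UMI had 1679 and 1281 CPM of Mmp12 and 403 and 236 CPM of Mmp13, against 367 and 193 CPM of Mmp12 and 144 and 90.3 CPM of Mmp13 in cells without one. Cluster 7, with high Mmp12 and Mmp13, held most of the macrophage-like Mmp8 UMIs. The split was not repeated outside that cluster.

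Mmp13 was highest in cluster 7 (511 and 365 CPM) and next in clusters 12.3 (344 and 191 CPM) and 12.2 (302 and 201 CPM), both led by interferon-induced genes such as Cxcl10 and Batf2. It was lowest in cluster 13 (11.2 and 12.5 CPM), the cluster where it was not higher in the library titled Blood. Its ratio passed 1.5-fold in 4 of the 10 clusters and was above 1 in 9.

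Mmp9 was uneven at another scale. In macrophage-like cells 92.7% and 91.0% of its UMIs were in the 5% of cells with the most of them, against 18.4% and 18.6% for Mmp14. Other members were concentrated too, with 84.6% and 100% for Mmp8 and 58.9% and 72.2% for Mmp12. This share is also higher for a gene found in fewer cells. Mmp14 had a UMI in 4512 and 4137 cells and Mmp8 in 501 and 159. A Mmp9 UMI was found in 703 of 5514 and 607 of 5077 macrophage-like cells, and 122 and 87 cells had 10 or more. The Mmp9 ratio passed 1.5-fold in 4 of 10 clusters, most in cluster 12.2 (162 and 14 UMIs, 128 and 15.4 CPM). It was below 1 in clusters 2 (60.5 and 75.7 CPM) and 13 (17.9 and 20.5 CPM). With clusters at equal weight its log2 ratio was 0.52, below the threshold. Without cluster 7 Mmp9 was at 62.0 and 39.9 CPM, just below 1.5-fold once 5 CPM is added to both.

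Mmp14 differed little but in the same direction throughout, with a ratio above 1 in 10 of 10 clusters and past 1.5-fold in cluster 13 only (109 and 62.6 CPM). Mmp19 was lower in the library titled Blood past 1.5-fold in 3 clusters, most in cluster 13 (49.96 and 161 CPM), and nearly equal over the class. Timp2 was highest in clusters 13 (538 and 720 CPM) and 3 (635 and 562 CPM), and lowest in cluster 4.0 (48.2 and 56.4 CPM), and passed 1.5-fold in none of the 10. Timp1 passed it in 1, cluster 4.0 (32.1 and 11.6 CPM).

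**Figure D3:**
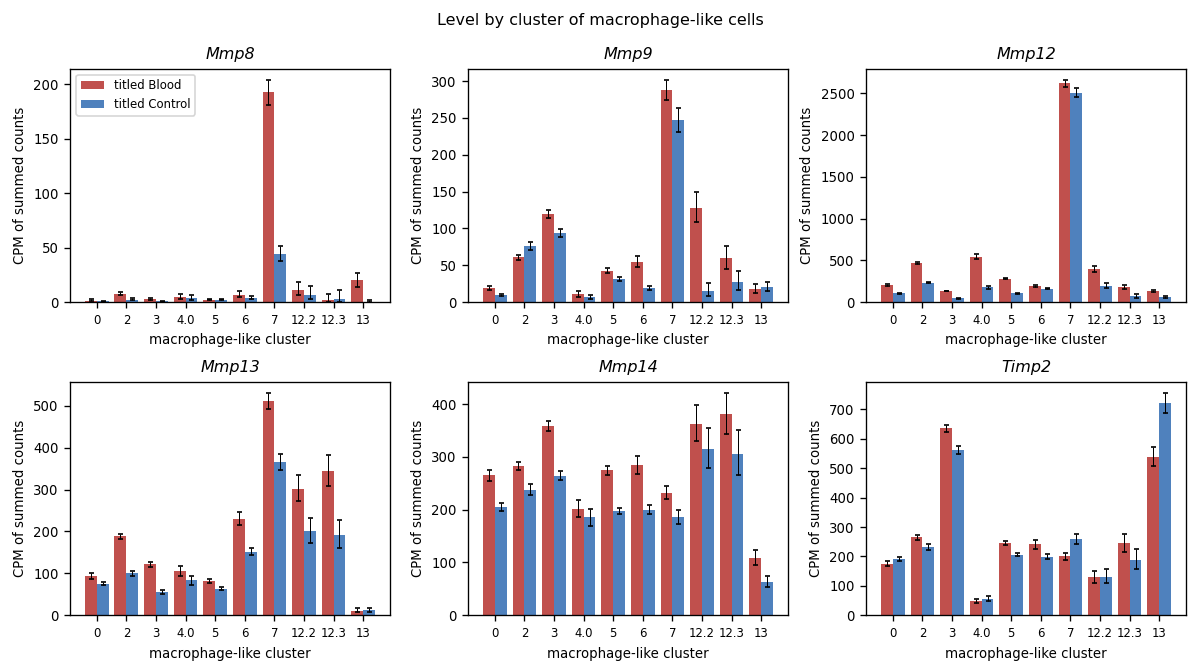
Level of 6 of the genes (y axis, CPM) in the 10 clusters of macrophage-like cells (x axis) in the library titled Blood (red, left) and the library titled Control (blue, right), with exact 95% Poisson intervals. Mmp12 in cluster 7 is nearly equal in the libraries (2620 and 2509 CPM), whereas Mmp8 in cluster 7 is at 193 and 44.0 CPM.

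In monocyte-like cells 8 genes were compared, 2 were higher (Mmp9 and Timp1) and 0 lower, where 0.66% of 7121 genes were called higher and 0.758% lower. The median log2 ratio of the 8 was 0.32, against 0.00 over all genes compared. Mmp9 was at 29.0 CPM (181 UMIs) in the library titled Blood and 7.86 CPM (36 UMIs) in the library titled Control. Timp1 was at 90.6 CPM (83.3 to 98.3) and 53.9 CPM (47.4 to 61.1). Mmp12 was equal within counting error over the class (164 and 168 CPM), but its 3 clusters differed, at 36.0 and 11.01 CPM in cluster 9, 347 and 315 CPM in cluster 4.1 and 248 and 398 CPM in cluster 12.1. Mmp9 was higher in the library titled Blood in all 3 clusters, from 11.3 and 6.52 CPM in cluster 9 to 59.6 and 12.4 CPM in cluster 4.1. The Mmp9 difference was lost when the Mmp and Timp genes were kept for the clustering (log2 ratio -0.060, against 1.40).

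In conventional dendritic cell-like cells 6 genes were compared and Mmp12 alone was higher, where 1.51% of 7528 genes were called higher and 1.16% lower. Mmp12 had 1161 UMIs (367 CPM) in the library titled Blood and 364 UMIs (117 CPM) in the library titled Control, a ratio of 3.14 (2.79 to 3.54). The median log2 ratio of the 6 was 0.24, against 0.02 over all genes compared.

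In neutrophil-like cells the library titled Control held 259745 UMIs in 129 cells, and 20.7% of 6516 genes were called higher and 14.2% lower. Of 7 genes compared 4 were called higher and 0 lower, and the median log2 ratio was 0.92. With Mmp14 at its bound, a log2 ratio of 0.25, 3 were past the threshold and the median was 0.58. Mmp8 had 647 UMIs (201 CPM) and 27 UMIs (104 CPM), a ratio of 1.94 (1.32 to 2.96). Mmp12 had 185 and 4 UMIs and Mmp13 had 44 and 1, with a ratio for Mmp13 of 3.56 (0.606 to 144). Mmp14 had 47 and 0 UMIs, at least 1.27-fold higher against a floor of 3 counts in the class. The exact 95% interval of its ratio begins lower, at 0.990, so equal levels lie within counting error. Mmp9, with 3172 and 296 UMIs, was at 0.866 (0.769 to 0.979) of the level in the library titled Control.

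In mesenchymal-like cells 9 genes were compared, 1 was higher (Mmp12) and 2 were lower (Mmp3 and Mmp9), where 0.976% of 8706 genes were called higher and 1.57% lower. The median log2 ratio of the 9 was -0.09, against -0.01 over all genes compared. Mmp9 was at 61.5 CPM (245 UMIs in 60 cells) in the library titled Blood and 141 CPM (904 UMIs in 109 cells) in the library titled Control. Without the cell with the most Mmp9 UMIs in each library, the values were 58.0 and 127 CPM. As a mean over single cells the log2 ratio of Mmp9 was -0.34, below the threshold, against -1.13 for the summed counts. The difference lay in cluster 19, with many UMIs per cell (65.4 and 155 CPM), and not in cluster 18, with few (38.4 and 37.3 CPM).

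Mmp3 in mesenchymal-like cells was at 4.77 and 58.2 CPM. Without the single cell of each library with the most Mmp3 UMIs it was at 2.27 and 15.3 CPM, and cluster 18 ran the other way with 15.7 and 0 CPM. As a mean over single cells the log2 ratio was 0.49, against -2.69 for the summed counts, so the direction depended on how the cells were weighted. Timp1 was below the threshold at 398 and 532 CPM, and 970 of its 3419 UMIs in the library titled Control came from 1 cell. Without the top cell of each library Timp1 was at 382 and 385 CPM. Mmp2 (256 and 225 CPM) and Timp2 (343 and 366 CPM) were below the threshold and rested on no single cell.

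The other 4 classes had few comparable genes. Mmp12 was higher in T cell-like cells (19.5 and 8.60 CPM), where 0.856% of genes were called higher and 0.933% lower. It was also higher in NK cell-like cells (16.0 and 3.95 CPM, on 34 and 9 UMIs), where 2.53% were called higher and 1.9% lower. In migratory dendritic cell-like cells Mmp9 (10 and 3 UMIs), Mmp12 (33 and 23 UMIs) and Timp1 (11 and 5 UMIs) were called higher, where 13.1% of all genes were called higher and 8.12% lower. In osteoclast-like cells Mmp13 was called higher (26 and 15 UMIs), where 7.03% were called higher and 3.16% lower. In that class Mmp9 differed by a ratio of 0.926 (0.893 to 0.960) only.

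Free RNA and doublets can place transcripts of one cell type in the droplets of another, so the counts in each class were set against the UMIs that a single source would leave there. For neutrophil RNA the source ratio was the Mmp8 or Mmp9 count per S100a8 and S100a9 UMI in neutrophil-like cells. These calgranulin transcripts made up 46896 and 55347 CPM of neutrophil-like cells and 71.3 and 12.02 CPM of macrophage-like cells. They were thus higher in the macrophage-like class of the library titled Blood, which also held more neutrophil-like cells. The expectation assumes that the macrophage-like cells make none of the calgranulin UMIs themselves.

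Neutrophil RNA at that ratio would leave 23.6 and 1.78 Mmp8 UMIs in macrophage-like cells, and 1459 and 306 were observed, 61.9 and 172 times as many. In cluster 7 alone 5.22 and 0.276 were expected, against 1131 and 163 observed. Taking the expected UMIs away moved the log2 ratio of Mmp8 in macrophage-like cells to 1.42 from 1.43. In macrophage-like cells with no S100a8 or S100a9 UMI (3755 and 4706 cells) Mmp8 was at 16.9 CPM (15.8 to 18.1) and 3.16 CPM (2.76 to 3.59). In those with one (1759 and 371 cells) it was at 22.5 and 11.4 CPM.

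Among macrophage-like cells, the 4 neutrophil markers compared were higher in Mmp8-positive cells in the library titled Blood and mixed in the library titled Control. Macrophage-like cells with a Mmp8 UMI had 164 and 17.2 CPM of S100a8, against 26.3 and 7.90 CPM in cells without one. The neutrophil receptor gene Cxcr2 was at 5.92 and 0.366 CPM against 1.73 and 0.537 CPM in the same comparison. S100a9 was at 123 and 1.83 CPM against 27.1 and 3.87 CPM, and the receptor gene Csf3r at 35.2 and 21.97 CPM against 25.3 and 21.90 CPM. The summed level of the 12 neutrophil markers in macrophage-like cells was 266 and 191 CPM, with all 12 detected in both libraries. Cells with a Mmp8 UMI had a median of 8737 and 14819 UMIs, against 12989 and 14176.5 in cells without one. The part of neutrophil RNA in these differences between cells was not tested beyond the counts above.

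Lymphoid classes held few Mmp8 UMIs. T cell-like cells had 4 and 0 UMIs against 1.97 and 0.0319 expected, NK cell-like cells 2 and 0 against 0.974 and 0.0244, and B cell-like cells 2 and 0 against 1.31 and 0. Mesenchymal-like cells had 2 and 2 Mmp8 UMIs against 0.356 and 0.0244 expected, which is 5.61 (0.680 to 20.3) and 81.9 (9.92 to 296) times as many, on 2 UMIs in each library. Monocyte-like cells had 124 and 110 Mmp8 UMIs, against 5.88 and 6.13 expected. These expectations are upper values if monocyte-like cells make some of the S100a8 and S100a9 themselves, which stood at 219 and 712 CPM. Their UMIs were in 195 of 906 and 44 of 676 monocyte-like cells, and the source of these UMIs was not tested.

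For Mmp9 the same source would leave 116 and 19.6 UMIs in macrophage-like cells, against 6095 and 3923 observed. In macrophage-like cells without an S100a8 or S100a9 UMI Mmp9 was at 68.9 and 43.4 CPM. In those with one it was at 97.0 and 115 CPM, so there the library titled Control was higher. S100a8, S100a9, Csf3r and Cxcr2 were higher in macrophage-like cells with a Mmp9 UMI than in those without, in both libraries. S100a8 was at 128 and 21.8 CPM against 21.3 and 6.11 CPM, and Cxcr2 at 8.75 and 2.07 CPM against 0.913 and 0.292 CPM. The part of neutrophil RNA in this was not tested further. In monocyte-like cells 28.8 and 67.2 were expected and 181 and 36 observed, so that in the library titled Control the observed count was below the expected. Osteoclast-like cells, the class with the highest level, would have 1.30 and 0.329 UMIs from neutrophil RNA and had 5220 and 6908.

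Osteoclast-like RNA was set against macrophage-like Mmp9 in the same way, a check added after seeing the data. By Ctsk alone, 483 and 214 Mmp9 UMIs would come from that source, 12.6 and 18.3 times fewer than observed, and the log2 ratio without them was 0.59. By Ctsk and Acp5 together the expected counts were 6077 and 5727, about as many as observed or more. That left 0.238 and 0 CPM of Mmp9, so the log2 ratio of 0.07 was set by the floor at 0 and the added 5 CPM. The expectation assumes that macrophage-like cells make none of the Ctsk and Acp5 themselves. Acp5 did not follow Mmp9 among macrophage-like cells, at 276 and 303 CPM in cells with a Mmp9 UMI and 278 and 307 CPM in cells without one. Ctsk did, at 31.6 and 7.33 CPM against 5.48 and 4.68 CPM. The outcome for the macrophage-like Mmp9 difference thus depended on which markers stood for osteoclast-like RNA.

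**Figure D4:**
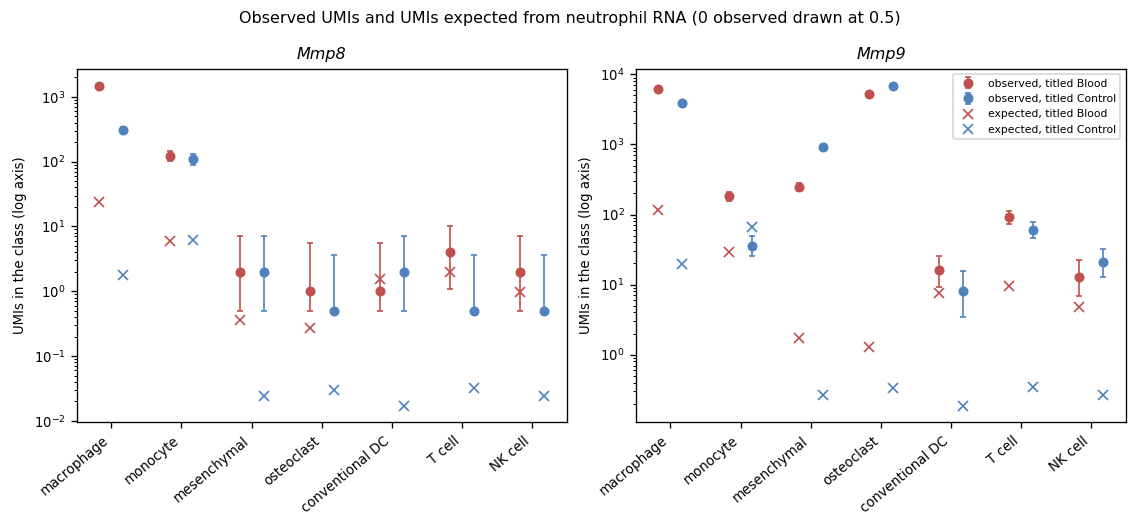
UMIs of Mmp8 and Mmp9 observed in each class (circles, with exact 95% Poisson intervals) and expected from neutrophil RNA alone (crosses), on a log y axis, for the library titled Blood (red) and the library titled Control (blue). Observed Mmp8 in macrophage-like cells (1459 and 306 UMIs) is far above the expected 23.6 and 1.78, and in T cell-like and NK cell-like cells it is close to it.

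Macrophage RNA was checked from C1qa, C1qb and C1qc, which were at 11101 and 12271 CPM in macrophage-like cells. The ratio used was the mean of that class, whose clusters differ in it. T cell-like cells had 139 and 46 Mmp12 UMIs, 2.43 and 1.52 times those expected, and NK cell-like cells had 34 and 9, 1.62 and 0.658 times. B cell-like cells had 8 and 1, fewer than expected. Mesenchymal-like cells had 228 and 66, 1.31 and 0.712 times the expected 174 and 92.6. Of the 228 UMIs in the library titled Blood 85 were in 1 cell. Osteoclast-like cells had fewer Mmp12 and Mmp13 UMIs than expected in both libraries. Migratory dendritic cell-like cells had 33 and 23 Mmp12 UMIs, 1.38 (0.948 to 1.93) and 1.15 (0.729 to 1.73) times the expected count.

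Neutrophil-like cells, where Mmp12, Mmp13 and Mmp14 were called higher, were set against macrophage RNA too. Mmp12 had 185 and 4 UMIs there against 61.3 and 2.09 expected. Mmp13 had 44 and 1 against 21.4 and 0.862, and Mmp14 had 47 and 0 against 37.4 and 1.92. The Mmp14 count of the library titled Blood was 1.26 (0.922 to 1.67) times the expected one, so the difference from macrophage RNA alone was within counting error.

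Other counts were well above what macrophage RNA would leave at the mean ratio of the class. Cluster 7 had more Mmp12 per C1q UMI than that mean, with C1q at 4784 and 6238 CPM in the libraries titled Blood and Control. What RNA of that cluster alone would leave was not tested. Conventional dendritic cell-like cells had 6.51 and 4.80 times the expected Mmp12, and 311 and 92.7 CPM were left after the expected UMIs were taken away. The C1q transcripts in that class were similar in the libraries, at 1340 and 1295 CPM. Monocyte-like cells had 3.51 and 6.25 times the expected Mmp12, 37.8 and 27.1 times the expected Mmp19 and 5.67 and 4.78 times the expected Mmp14. Mesenchymal-like cells had 10.1 and 14.9 times the expected Mmp14 and 473 and 640 times the expected Mmp2. In conventional dendritic cell-like cells Mmp13 was at 0.513 and 0.895 times the expected count, no more than that source would leave.

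Other proteases and partners were followed as lists in macrophage-like cells, with no test between lists. Of 12 Adam and Adamts genes 5 were compared and 1 was higher, the sheddase gene Adam8, at 357 CPM (353 to 361) in the library titled Blood and 229 CPM (225 to 232) in the library titled Control. Adam15 (167 and 136 CPM) and Adam17 (120 and 98.8 CPM) were below the threshold. Of 9 genes of the plasminogen system 3 were compared and 0 were called, with the urokinase gene Plau at 63.6 and 49.4 CPM its receptor gene Plaur at 183 and 163 CPM and the plasminogen receptor gene Plgrkt at 112 and 109 CPM. Of 6 cathepsin and cystatin genes all 6 were compared and 0 were called, with Ctss at 2934 and 3043 CPM, Ctsb at 2335 and 2139 CPM and the cystatin gene Cst3 at 1763 and 1930 CPM.

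Of 10 genes for activators, receptors and partners of metalloproteinases 7 were compared and 0 were called, with Cd63 at 905 and 764 CPM, Thbs1 at 337 and 271 CPM and Bsg at 335 and 314 CPM. Of 10 matrix substrate genes 2 were compared and 0 were called, with the fibronectin gene Fn1 at 765 and 521 CPM and Spp1 at 396 and 310 CPM. Lamc1, a laminin chain gene, was below the filter at 7.62 and 5.19 CPM. The list medians on the log2 scale were 0.27 for the Adam and Adamts genes, 0.16 for the plasminogen system, 0.06 for the cathepsins, 0.24 for the partners and 0.45 for the substrates. None of the 16 other Mmp and Timp genes or the 3 neutrophil serine protease genes passed the filter in macrophage-like cells. Of the serine protease genes Prtn3 had 101 and 68 UMIs there, Ctsg 2 and 1, and Elane none. The highest of those 16 over all cells were Timp3, Mmp25 and Mmp11. Timp3 was at 65.3 and 52.6 CPM in mesenchymal-like cells, Mmp11 at 14.6 and 16.0 CPM in the same class, and Mmp25 at 83.5 and 114 CPM in migratory dendritic cell-like cells.

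The genes most like each member were sought over 18 profiles, the 9 classes in each library, among 5618 genes. The profiles share libraries and classes, and the correlations (Pearson's r of log2 values of CPM + 5) are a description only. The closest to Mmp8 was the formyl peptide receptor gene Fpr1 (0.98), to Mmp9 Myo1d (0.94), to Mmp12 the Fc receptor gene Fcgr2b (0.92) and to Mmp13 Slc7a8 (0.93). The closest to Mmp14 was Plxnb2 (0.97), to Mmp19 Zfp703 (0.91), to Mmp2 Ankrd1 (0.99) and to Mmp3 Cpxm1 (0.997). The value for Mmp3 rests mainly on mesenchymal-like cells of the library titled Control, where a single cell held 277 of its 374 UMIs. For the inhibitors the closest genes were Cnn3 for Timp1 (0.94) and Rtn3 for Timp2 (0.92). The third gene on the list of Mmp9 was Atp6v0d2 (0.90), a proton pump subunit gene and an osteoclast marker used to name its leading class.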

How the data were processed

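The authors deposited raw UMI counts per gene and barcode (10x Genomics single cell 3′ v3 chemistry), and per the submitters' processing notes Cell Ranger 3.1.0 and mm10 were used. Neither the annotation release nor the strand setting is given in the sources used here. The 10 genes, the lists and the marker genes were chosen with earlier results of these data known.

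Barcodes had to show 300 genes and 500 UMIs or more and no more than 20% mitochondrial UMIs. Doublets called by Scrublet (scanpy 1.11.5, at 0.8% per 1000 cells) were removed, 276 and 162 in the libraries titled Blood and Control, 2.38% and 1.80% against 9.29% and 7.19% expected, and doublets may remain. Cells were clustered on 2000 variable genes without the Mmp and Timp genes (30 components, 15 neighbours, Leiden resolution 1, leidenalg 0.10.2). Clusters were named "-like" from 23 marker lists by score. The limits of the score were set after seeing the data, and 525 and 800 cells stayed unnamed. Rebuilt names may differ from the study's.

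Counts were summed per class and library and given as CPM. Poisson, binomial and conditional binomial intervals were exact at 95%, from scipy 1.17.1, and the intervals were tested on simulated data. Ratios are the library titled Blood over the library titled Control, on log2 of (CPM + 5). Named were all 10 genes and, of each other list, the 3 highest over all cells and any past 1.5-fold in macrophage-like cells. A gene named beyond that, such as a carry-over marker or a gene that leads a cluster, was chosen after its values were seen. Gene positions are from GENCODE M21. Alternatives covered doublets, resolution, separate clustering, the Mmp and Timp genes among the variable genes, cell weighting, scaling, pseudocount, filters, depth and carry-over.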

Additional observations from a re-analysis of the deposited data

Results flagged for a closer look

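Mmp9 differed between the libraries in opposite directions in different classes, and the difference between classes was not tested because there is 1 library per title. Its log2 ratio, titled Blood over titled Control, was 0.62 in macrophage-like, 1.40 in monocyte-like and 1.32 in migratory dendritic cell-like cells, and -1.13 in mesenchymal-like cells. The value in migratory dendritic cell-like cells rests on 10 and 3 UMIs. The other values depended on processing. As a mean over single cells the mesenchymal-like value was -0.34, below the threshold. With the Mmp and Timp genes kept for the clustering the monocyte-like value was -0.060. Once osteoclast-like RNA by Ctsk and Acp5 was taken away, the macrophage-like value was 0.07, with almost no Mmp9 left.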

How the results depend on the processing

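No paired analysis was possible because each title has 1 library. Of 699 recomputed log2 ratios of single genes in a class, 560 stayed within the counting interval of the main value and 136 moved outside it. Another 3, from ratios past 1.5-fold, changed sign. They were Mmp13 in neutrophil-like cells with doublets kept (-0.25) and Mmp3 in mesenchymal-like cells as a mean over single cells (0.49). The last was Mmp9 in monocyte-like cells with the Mmp and Timp genes kept among the variable genes (-0.060). Sign changes of ratios below 1.5-fold were not counted as such. Mmp12 in monocyte-like cells, for example, kept its sign in 6 of 13 alternatives. In macrophage-like cells Mmp8, Mmp9, Mmp12 and Mmp13 stayed higher in the library titled Blood under all alternatives. Of the 4 past 1.5-fold, 2 were left at Leiden resolution 2, with clusters at equal weight and without cluster 7. Once osteoclast-like RNA by Ctsk and Acp5 was taken away, Mmp9 was at 0.07, but with only 0.238 and 0 CPM of Mmp9 left. Leaving out cluster 7 or a top cell, cluster 19 alone and both osteoclast-like expectations were chosen after seeing the data. The count was 4 against 2 in monocyte-like cells with at least 1000 UMIs per cell or each library clustered on its own. In the remaining classes it was, for NK cell-like cells, 3 against 1 when doublets stayed in and 2 as a mean over single cells, 0 against 1 in T cell-like cells at resolution 2, and 2 against 1 in conventional dendritic cell-like cells with separate clustering or without the top cell. In migratory dendritic cell-like cells it was 1 against 3 at resolution 0.5 or with doublets kept. In osteoclast-like cells it was, against 1, 0 at resolution 2 or with at least 1000 UMIs, 4 with separate clustering, 3 as a mean over single cells and 2 with a pseudocount of 1 CPM or without the top cell. The cause was not tested. No conventional dendritic cell-like class was found with doublets kept or at resolution 0.5, so neither gave a value there. Thinning to 1000 UMIs lowered 26 of 29 shares of cells past their interval. Depth limits the comparison of neutrophil-like cells, with 259745 UMIs in the library titled Control.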
